A study of Homo sapiens and Mus musculus with 13 samples.

Results

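The genes described here are those of the mouse MHC class II system and of its transactivator: H2-Ab1, H2-Aa and H2-Eb1, which encode the antigen-presenting chains, Cd74, Ciita, H2-DMa, H2-DMb1, H2-Oa and H2-Ob. They were taken by gene symbol from the deposited table, in which 9 symbols matched 10 of 37991 rows, because Ciita has 2 Ensembl identifiers. RNA sequencing was done on a mouse haematopoietic progenitor line that HOXB8 immortalizes, cultured in beta-estradiol and conditioned medium containing stem cell factor. The knock-in group holds 3 single-cell clones (4, 12 and 18) in which CRISPR/Cas9 placed GFP-tagged NPM1c, the mutant nucleophosmin of acute myeloid leukaemia that accumulates in the cytoplasm, and the parental group holds 2 wild-type libraries of the same HOXB8 line. Both groups therefore carry the immortalizing HOXB8, and each clone descends from a single edited cell, so a feature of a clone and an effect of NPM1c cannot be told apart within that clone. The sources used here give no strain, sex or age of the source mouse, and the human leukaemia libraries of the series were not used.

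An MHC class II molecule is a pair of an alpha and a beta chain that carries peptides from endosomes to the cell surface, where CD4 T cells read them. H2-Aa and H2-Ab1 encode the alpha and beta chains of the A molecule, and H2-Eb1 the beta chain of the E molecule. CD74, the invariant chain, fills the groove of a newly made molecule. The DM pair (H2-DMa with a DM beta chain) exchanges the remaining CD74 fragment for peptide, and the DO pair (H2-Oa with H2-Ob) restrains DM. CIITA does not bind DNA itself but is recruited by RFX, CREB and NF-Y proteins to the promoters of these genes, and in antigen-presenting cells it drives classical class II genes, Cd74 and the DM genes together, whereas H2-Ob depends on it less.

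Depth differed between the libraries. Clone 4 had 7358340 reads, clone 12 had 12235174 and clone 18 had 9427149, whereas parental replicate 1 had 9728260 and parental replicate 2 had 99557475. A single read was worth 1.23 to 2.05 normalized read counts in the clones, 1.55 in parental replicate 1 and 0.153 in parental replicate 2, so a gene with few reads is seen far more finely in the deep parental library. RNA of the targeted gene Npm1 was at 14305, 15141 and 14144 normalized read counts in clones 4, 12 and 18 and at 25695 and 25714 in parental replicates 1 and 2, and thus less abundant in the clones (log2 fold change -0.82, SE 0.0673, adjusted p = 0.000533, limma). Of the progenitor markers, Kit was between 5263 and 8571 and Cd34 between 14739 and 17793 normalized read counts in the 5 libraries. The granule protein genes Prtn3 and Elane were lower in the clones (adjusted p = 0.0328 and 0.0240, limma), and the granule protease gene Ctsg did not pass (0.382). Fcgr3, Ptprc and Myb of the same list were higher (adjusted p = 0.000466, 0.0432 and 0.0412, limma), though Ptprc and Myb not in every alternative fit. Values are given below as normalized read counts, which are reads divided by a library's size factor, and a gene was tested where its mean over the 5 libraries was at least 10. The labels do not say whether the 2 parental libraries are separate cultures. If they are not, what differs between those 2 is technical only. The p-values rest on it in part, because limma pools it with the variation among the clones.

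In the knock-in clones RNA of H2-Ab1, H2-Oa, H2-Ob and H2-DMa was higher than in the parental cells and RNA of H2-DMb1 was lower. H2-Aa and H2-Eb1 had no read in any library, Ciita had a single read in all, and Cd74 had 6. The class II genes therefore did not change as a block: H2-Ab1 was 5.37-fold higher on the log2(value + 1) scale, while its partner chain H2-Aa was not detected in either group. Of the 9 genes 5 were abundant enough to be tested, each with a mean above 10 in both groups, and all 5 passed (adjusted p under 0.05, limma), 4 upward and 1 downward, with a median log2 fold change of 1.23 against 0.01 over all genes. Over all 13132 genes tested, 16.0% passed, 7.51% upward and 8.49% downward. In each of the 5 the libraries of the 2 groups did not overlap, which held for 50.2% of all genes tested. A count model on the recovered whole reads (edgeR's quasi-likelihood test) called the same 5 genes in the same directions, against 17.6% of its 12903 genes.

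**Figure D1:**
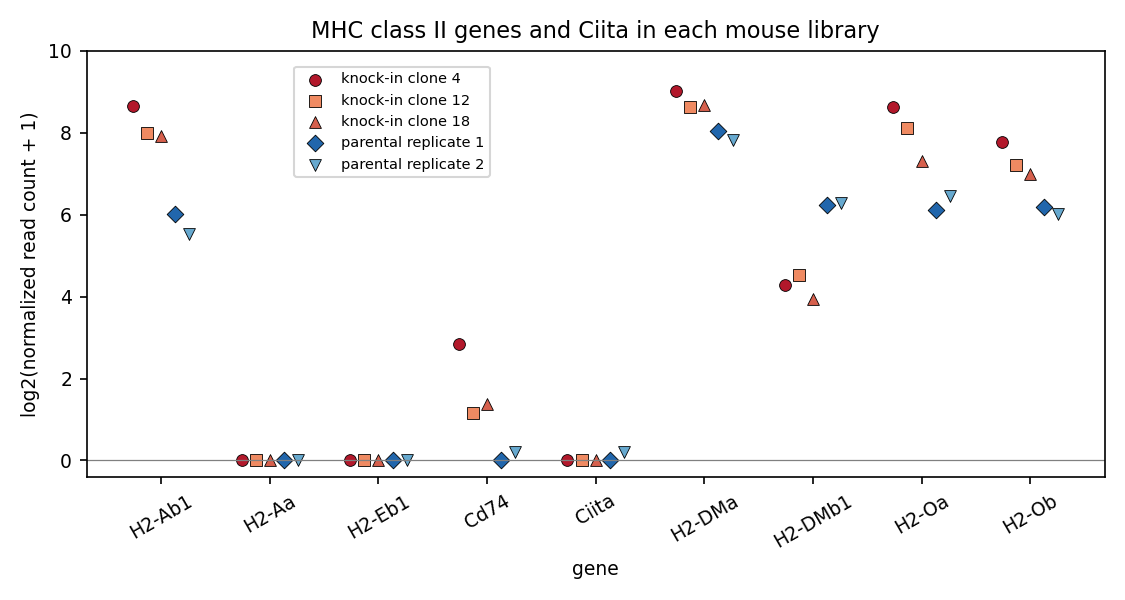
Normalized read counts of the 9 genes on the log2(value + 1) scale (vertical axis), a point per library, with clones in red shades and parental libraries in blue. H2-Ab1, H2-DMa, H2-Oa and H2-Ob sit higher in every clone than in either parental library, H2-DMb1 sits lower, and H2-Aa, H2-Eb1 and Ciita lie at or next to 0 (the Ciita row shown is the identifier with a read).

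H2-Ab1 (ENSMUSG00000073421) showed the largest of the 5 differences. Its normalized read count was 404.1 in clone 4, 254.8 in clone 12 and 242.5 in clone 18, from 197, 207 and 153 reads, and 63.70 and 45.04 in parental replicates 1 and 2, from 41 and 295 reads. Every clone was above both parental libraries, and the parental libraries differed from each other 1.41-fold. The group values were 300.5 ± 90.0 (SD, n = 3) and 54.37 ± 13.2 (SD, n = 2), which differ by 2.43 in log2 units (SE 0.273, adjusted p = 0.00168, limma). The call held when any of the 5 libraries was left out. Which transcript gives the reads counted for H2-Ab1, in cells without reads of H2-Aa and with almost none of Ciita and Cd74, was not tested.

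H2-Aa (ENSMUSG00000036594), the alpha chain with which the H2-Ab1 product pairs, was not seen among the 29020663 reads of the clones or the 109285735 of the parental libraries, and a floor of 3 reads over each group allows up to 0.103 and 0.0275 RPM (reads scaled to the total of the group). H2-Eb1 (ENSMUSG00000060586) had 0 reads in both groups, with the same limits. H2-Ab1 itself had 19.19 RPM in the clones and 3.07 in the parental libraries. The pseudogene H2-Ea-ps had no read in any library, and H2-Eb2, a further beta chain gene, had a single read, in parental replicate 2. Class II genes are polymorphic between mouse strains, and how well reads of another haplotype would match the reference used by the authors was not tested.

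Ciita and the invariant chain were close to absent. The Ciita row with a read (ENSMUSG00000022504) had 0 reads in the 3 clones and 1 in parental replicate 2, and the other Ciita row (ENSMUSG00000075404) had none, and a difference could not be detected at this depth. Cd74 (ENSMUSG00000024610) had 3 reads in clone 4, 1 each in clones 12 and 18, 0 in parental replicate 1 and 1 in parental replicate 2. In RPM this was 0.172 for the clones against 0.00915 for the parental libraries, a ratio of 18.8 with a 95% exact interval of 2.11 to 891 that covers counting error only. The ratio rests on 5 reads against 1, of which 3 are from clone 4, and Cd74 was not abundant enough for the test across genes.

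The DO pair was higher in the clones. H2-Oa (ENSMUSG00000024334), the DO alpha chain, was at 391.8, 278.2 and 158.5 in clones 4, 12 and 18 and at 68.36 and 86.71 in parental replicates 1 and 2. Every clone was thus above both parental libraries, clone 18 by the least. The means were 276.2 ± 117 (SD, n = 3) and 77.54 ± 12.98 (SD, n = 2), 1.73 apart in log2 units (SE 0.369, adjusted p = 0.0231, limma). This call was lost without clone 12 (adjusted p = 0.0892), parental replicate 1 (0.0871) or parental replicate 2 (0.0692). H2-Ob (ENSMUSG00000041538), the DO beta chain, was at 217.5, 146.5 and 125.2 in the same clones and at 71.47 and 63.20 in parental replicates 1 and 2, again without overlap. Its means of 163.1 ± 48.3 (SD, n = 3) and 67.34 ± 5.85 (SD, n = 2) gave a log2 difference of 1.23 (SE 0.258, adjusted p = 0.0181, limma), which did not pass without clone 12 (0.0574) or parental replicate 2 (0.0911).

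The chains of the DM pair moved in opposite directions. H2-DMa (ENSMUSG00000037649), the alpha chain, was at 517.0, 392.7 and 405.8 in clones 4, 12 and 18 and at 264.1 and 223.4 in parental replicates 1 and 2, so that every clone was above both. The means were 438.5 ± 68.3 (SD, n = 3) and 243.7 ± 28.8 (SD, n = 2), with a fitted difference of 0.84 in log2 units (SE 0.178, adjusted p = 0.0185, limma), lost without clone 12 (0.0513) or parental replicate 2 (0.0871). H2-DMb1 (ENSMUSG00000079547), a DM beta chain, was at 18.46, 22.16 and 14.27 in the clones, from only 9, 18 and 9 reads, against 74.58 and 76.79 in the parental libraries, from 48 and 503 reads. Here every clone lay below both parental libraries, which differed from each other 1.03-fold. The means of 18.30 ± 3.95 (SD, n = 3) and 75.68 ± 1.57 (SD, n = 2) gave a log2 difference of -2.01 (SE 0.307, adjusted p = 0.00571, limma), which did not pass without parental replicate 2 (0.0564).

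H2-DMb1 has a near-identical neighbour, H2-DMb2, and the sources used here do not say how reads shared by them were counted. H2-DMb2 was at 24.62, 32.01 and 25.36 in clones 4, 12 and 18 and at 41.95 and 40.30 in parental replicates 1 and 2, a log2 difference of -0.58 (SE 0.289) that did not pass (adjusted p = 0.216, limma). With the reads of both copies summed, the clones were at 43.08, 54.17 and 39.63 and the parental libraries at 116.5 and 117.1, with a log2 difference of -1.35 (SE 0.227, adjusted p = 0.00854, limma). The fall was therefore smaller for the summed DM beta chain than for H2-DMb1 alone, and it passed in both forms.

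Ratios between the genes within a library do not depend on the scaling between libraries. The ratio of H2-DMa to H2-DMb1 ran from 17.72 in clone 12 to 28.44 in clone 18, with clone 4 next to clone 18, and was 3.54 and 2.91 in parental replicates 1 and 2, without overlap. With 3 clones and 2 parental libraries an exact two-sided permutation test cannot give a p below 0.1, and this ratio reached that value (adjusted p = 0.267 over the 4 ratios compared, exact permutation). The ratio of H2-Oa to H2-Ob was 1.80, 1.90 and 1.27 in the clones and 0.957 and 1.37 in the parental libraries, so the groups overlapped (p = 0.3, exact permutation). H2-Oa over H2-DMa was 0.758, 0.708 and 0.391 against 0.259 and 0.388, so that clone 18 and parental replicate 2 nearly met. H2-Ob over H2-DMa was 0.421, 0.373 and 0.309 against 0.271 and 0.283. In both ratios the groups did not overlap, each with an exact permutation p of 0.2, and the counting error of the ratios was not tested.

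The clones differed among themselves. Clone 4 had the highest value of the 3 clones in each of the 4 genes that rose, and clone 18 was the lowest in H2-Ab1, H2-Oa and H2-Ob. These numbers follow the sample titles. The column headings give the libraries titled 4, 12 and 18 as 18, 4 and 12, so which clone is which is not settled. The spread was widest for H2-Oa, in which clone 4 was 2.47 times clone 18, and narrowest for H2-DMa at 1.32 times. Relative to the parental mean, H2-Oa was 5.05-fold higher in clone 4 (95% Poisson interval of the clone's reads 4.36 to 5.82), 3.59-fold in clone 12 (3.14 to 4.09) and 2.04-fold in clone 18 (1.66 to 2.49), and these intervals did not overlap. H2-Ab1 was 7.43-fold higher in clone 4 (6.43 to 8.55), 4.69-fold in clone 12 (4.07 to 5.37) and 4.46-fold in clone 18 (3.78 to 5.23), where clones 12 and 18 overlapped. For H2-DMb1 the 3 intervals overlapped and the order of the clones was not resolved. These intervals take the parental mean as fixed and cover counting error only, and reads of a single library per clone do not show how far a clone would vary between cultures.

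**Figure D2:**
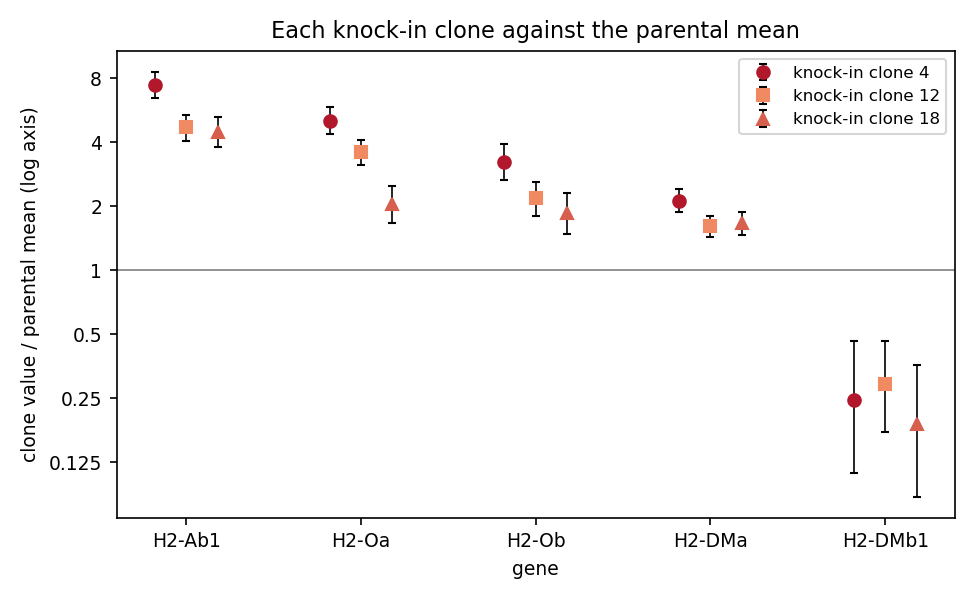
Normalized read count of each knock-in clone divided by the parental mean (log axis), for the 5 genes tested, with 95% Poisson intervals of the clone's reads and a line at 1. Clone 4 lies highest in the 4 genes above the line, and H2-DMb1 lies below the line in all 3 clones.

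Most of these genes are neighbours. In the mouse the class II region runs, by textbook order, from H2-Oa through Brd2, H2-DMa, H2-DMb2, H2-DMb1, Psmb9, Tap1, Psmb8, Tap2, H2-Ob and H2-Ab1 to H2-Aa, H2-Eb1, H2-Eb2 and Btnl2. This order is background knowledge and was not read from the files. Genes that passed upward, genes that passed downward and genes that did not pass were interspersed in it. Tap1, a subunit of the peptide transporter of the class I pathway, fell by 0.37 on the log2 scale (SE 0.0850, adjusted p = 0.0257, limma), although not without any single library other than clone 4 (0.0504 to 0.149). Tap2, the other subunit, rose by 0.41 (SE 0.0970, adjusted p = 0.0277, limma). Psmb8 and Psmb9, subunits of the immunoproteasome, and Brd2, a bromodomain protein, did not pass (adjusted p between 0.105 and 0.207, limma). The 4 genes listed past H2-Ab1 had few reads or none, and Btnl2, a butyrophilin-like gene, did not exceed 2.46 in any library. Brd2, Btnl2, Psmb8, Psmb9 and Tap2 were chosen after their values were seen, to show the neighbours.

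**Figure D3:**
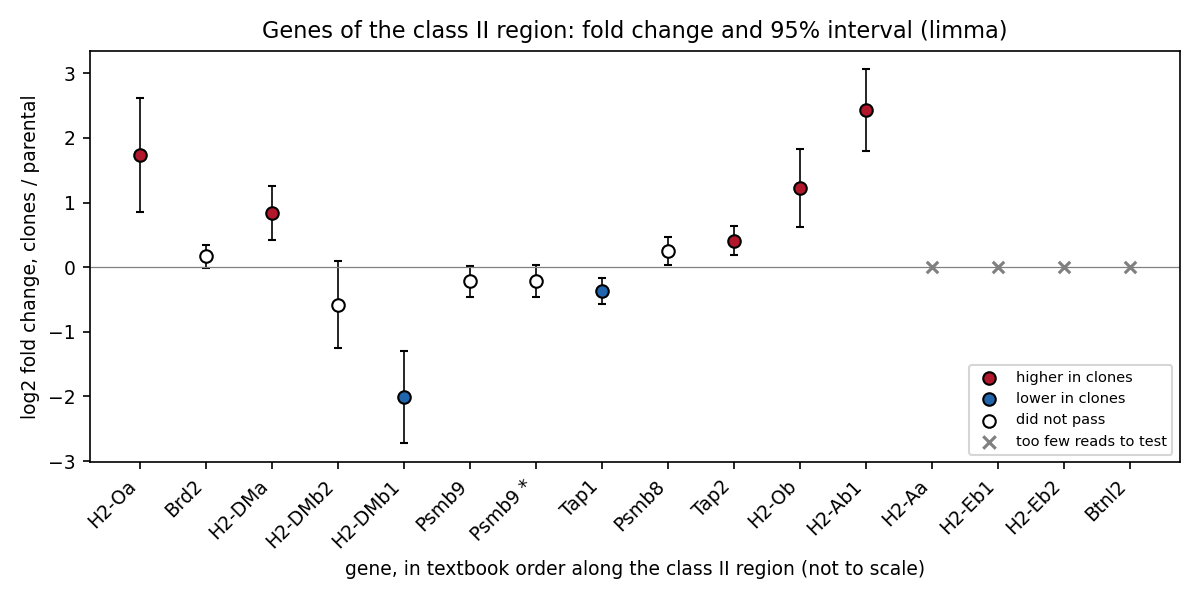
Log2 fold change of clones over parental libraries (vertical axis) with its 95% interval from limma, for genes in textbook order along the class II region, not to scale. Red and blue points passed upward and downward, open points did not pass, crosses mark genes with too few reads, and the starred Psmb9 is its other identifier; H2-Oa, H2-DMa, H2-Ob, H2-Ab1 and Tap2 are red, H2-DMb1 and Tap1 blue.

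The factors that bind class II promoters and their coactivators were expressed in every library in these cells. Of 12 tested, 1 was lower (8.49% of all genes were), none was higher (7.51%) and 11 did not pass, with a median log2 fold change of -0.18 against 0.01 over all genes. The gene that passed was Creb1, which encodes CREB, at 1889 ± 23.3 (SD, n = 3) in the clones and 2694 ± 132 (SD, n = 2) in the parental cells (log2 fold change -0.51, SE 0.0889, adjusted p = 0.00958, limma), a call lost without parental replicate 2 (0.0619). Nfya and Nfyb, NF-Y subunits, had log2 fold changes of -0.46 and -0.42 that did not pass (adjusted p = 0.0581 and 0.0706, limma), though they did with DESeq2 (0.0264 and 0.0279). Rfx5, the large subunit of RFX, was between 3078 and 3801 in the clones and was 3100 and 3552 in parental replicates 1 and 2, which overlapped (adjusted p = 0.890, limma). Rfx5 was named after its values were seen.

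The 14 genes placed upstream of Ciita were chiefly the interferon gamma receptor, its signalling proteins and myeloid or lymphoid transcription factors. Of the 14, 12 were tested, of which 1 was higher, 3 were lower and 8 did not pass. Over all genes 7.51% were higher and 8.49% lower. Of the 3 lower, Mef2c and Prdm1 reached the minimum for testing through the parental libraries alone, and no test is given for them. Ifngr1 is therefore the only lower call to read against the 8.49%. Jak2, a kinase of the interferon gamma receptor, was higher in the clones (log2 fold change 0.62, SE 0.142, adjusted p = 0.0243, limma), but not without clone 12 (0.0868) or parental replicate 1 (0.0882). Ifngr1, the ligand-binding receptor chain, was lower (log2 fold change -0.47, SE 0.131, adjusted p = 0.0488, limma), a call that was lost without any single library (adjusted p 0.0714 to 0.136) and with equal library totals (0.0551), a minimum mean of 1 (0.0551) or no filter (0.0728). Prdm1, a repressor that shuts off Ciita in plasma cells, was at 2.05, 0 and 6.34 in clones 4, 12 and 18 and at 62.15 and 58.78 in the parental libraries. Mef2c, a transcription factor of lymphoid and myeloid cells, had no read in any clone and was at 411.7 and 531.4 in the parental libraries. Irf1, a transcription factor that interferon gamma induces, did not pass (adjusted p = 0.671, limma; named after its values were seen), and Irf4 had no read.

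In the list of endosomal proteases and other genes of class II peptide loading and turnover, 2 of 9 tested genes were higher, none was lower and 7 did not pass (median 0.42), a share of calls near the 16.0% of all genes. Ctsd, the aspartic protease cathepsin D, rose from 14620 ± 171 (SD, n = 2) to 33054 ± 907 (SD, n = 3), or by 1.18 in log2 units (SE 0.0635, adjusted p = 0.000112, limma). The row with the symbol 8-Mar, the date form that spreadsheet programs give to March8, a ubiquitin ligase that removes class II molecules from the surface, was higher at 1395 ± 283 against 764.6 ± 130 (adjusted p = 0.0255, limma), but not without clone 12 (0.0950) or parental replicate 1 (0.104). Ctss, cathepsin S, which trims CD74 in antigen-presenting cells, was at 112.8 in clone 4, 7.39 in clone 12 and 0 in clone 18 against 12.43 and 25.80 in the parental libraries (adjusted p = 0.788, limma; named after its values were seen). Clone 4 thus stood above the other libraries in Ctss, as it did in the 4 class II genes that rose. Lgmn, an asparaginyl protease, showed 43.08, 0 and 0 in the same clones against 24.86 and 16.64 (adjusted p = 0.358, limma; likewise named after its values were seen).

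The class I pathway gave a comparison with the other MHC system, whose genes partly lie in the same region. Of 20 rows tested, 4 were higher, 1 was lower and 15 did not pass, with a median log2 fold change of 0.13, where 7.51% of all genes were higher and 8.49% lower. The class I heavy chains H2-K1 and H2-D1 did not pass (log2 fold changes -0.02 and 0.06, adjusted p = 0.878 and 0.644, limma), nor did Nlrc5, the class I counterpart of Ciita (-0.09, adjusted p = 0.721, limma). Those that rose besides Tap2 were Calr, the chaperone calreticulin (log2 fold change 0.58, adjusted p = 0.00701), Tapbp, the peptide editor tapasin (0.51, adjusted p = 0.00854), and H2-T23, a nonclassical class I chain (0.56, adjusted p = 0.0145, limma). H2-T23 did not pass without clone 12 (0.0611) or parental replicate 1 (0.0620). B2m, the light chain shared by class I molecules, was at 1311 in parental replicate 1 but 217.1 in replicate 2. The clones were at 1167 to 1766 (adjusted p = 0.313, limma). The parental libraries thus stood apart in B2m, though not in H2-K1 (32404 and 33315). Outside the class I list they also stood apart in Ctsg (1866 and 260.3) and the mast cell gene Cpa3 (2450 and 386.2). H2-K1, H2-D1, Nlrc5 and B2m were named after their values were seen, and reads of class I heavy chains can be shared between near-identical genes.

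The 9 genes called costimulatory ligands here include the receptor gene Cd40 and the inhibitory ligand gene Cd274. Of the 9, 4 were tested, 2 were higher (7.51% of all genes were) and 2 did not pass. Tnfsf4, the OX40 ligand, was at 34.88, 19.70 and 7.93 in clones 4, 12 and 18 with no read in either parental library. It reached the minimum for testing through the clones alone, so no test is given for it and Cd274 is the only call to read. Icosl, the ICOS ligand gene and 1 of the 2 that did not pass, reached that minimum through the parental libraries alone. Cd274, which encodes PD-L1, was at 41.03, 78.79 and 77.67 in the clones and 17.09 and 23.36 in the parental libraries (log2 fold change 1.61, SE 0.362, adjusted p = 0.0228, limma). The call of Cd274 was lost without any single library other than clone 4 (0.0638 to 0.0969). Cd40 and Cd83 had no read in any library and Cd86 stayed below 1. Of the partners of CD74, Cd44, which signals with CD74 when MIF binds, fell from 20331 ± 1762 (SD, n = 2) to 11704 ± 654 (SD, n = 3) (adjusted p = 0.00135, limma), and Mif and Cxcr4 did not pass (0.512 and 0.201), and the log2 difference of Mif ran from -0.26 without parental replicate 2 to 1.07 without parental replicate 1.

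**Figure D4:**
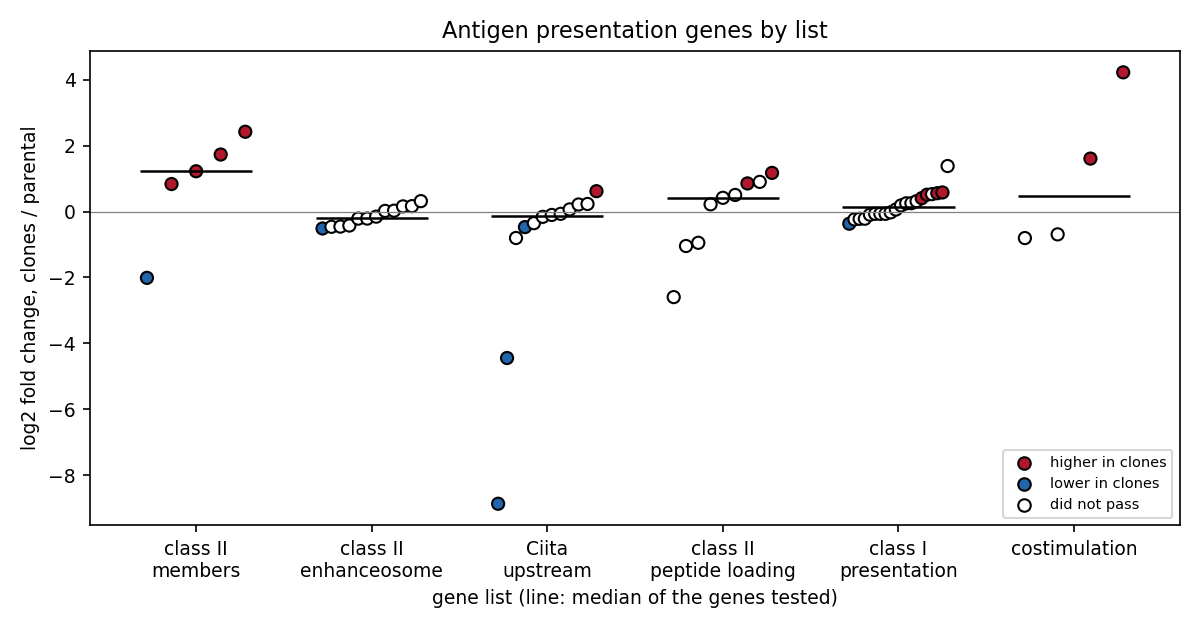
Log2 fold change of clones over parental libraries (vertical axis) for the tested genes of 6 lists, with red and blue points passing upward and downward, open points not passing and a line at the median of each list. The class II genes spread from -2.01 to 2.43 while 11 of 12 promoter-binding factors and coactivators are open points. The lowest point is Mef2c, whose fitted value rests on 0 reads in the clones. Mef2c, Prdm1, Tnfsf4 and Icosl were tested through 1 group alone, and their colours are not read as calls. The medians of their lists include them.

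Genes of professional antigen-presenting cells were examined beside these values. Of 16 dendritic cell markers 6 were tested, 2 higher and 2 lower (7.51% and 8.49% of all genes). The summed level of the list was 5970 to 6417 in the clones and 8331 to 8489 in the parental libraries. Most of it came from Flt3 (mean 3812 in the clones against 5483) and Tcf4 (1976 against 2705), so the sum says little of the other markers. Clec10a, a lectin of dendritic cells and macrophages, was higher (171.4 ± 34.6, SD, n = 3, against 47.68 ± 2.88, SD, n = 2, adjusted p = 0.00232, limma). Itgax, which encodes CD11c, was at 67.70, 28.31 and 22.19 in clones 4, 12 and 18 against 1.55 and 3.36. It reached the minimum for testing through the clones alone, so Clec10a is the only higher call to read. Flt3 and Tcf4, which dendritic cells share with progenitors, were lower (adjusted p = 0.0117 and 0.0257, limma). The call of Flt3 was lost without clone 12 (0.0543) or parental replicate 2 (0.0635), and that of Tcf4 without any single library other than clone 4 (0.0531 to 0.134). Batf3, Siglech and Cd209a had no read in any library, and Zbtb46 had 0.153 in parental replicate 2 alone. Of 15 B cell marker rows 8 were tested, with none higher and 3 lower (8.49% of all genes), and the sum was 2390 to 3131 in the clones against 5118 to 5329. Most of this sum came from Igll1 (mean 1792 in the clones against 3668) and Ebf1 (841.4 against 1314). Cd79b, a chain of the B cell receptor, was at 0, 1.23 and 1.59 in clones 4, 12 and 18 and at 80.79 and 90.23 in the parental libraries, through which alone it reached the minimum for testing. The lower calls to read are thus those of Igll1 and Ebf1 (adjusted p = 0.00701 and 0.0240, limma), Ebf1 not in every alternative fit. A further Ebf1 row, under another identifier, was at 22.57, 11.08 and 3.17 in clones 4, 12 and 18. It was at 10.88 and 19.54 in the parental libraries and did not pass (adjusted p = 0.654, limma). Ms4a1 and Cd22 had no read and Pax5 stayed below 3.

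Of 15 monocyte and macrophage marker rows 6 were tested, 1 higher and none lower, a share near the 16.0% of all genes, with sums of 4811 to 8918 in the clones and 8404 to 8964 in the parental libraries. Emr1, which encodes the macrophage antigen F4/80, rose to 937.5, 531.8 and 659.4 in clones 4, 12 and 18 from 153.8 and 190.5 (adjusted p = 0.00269, limma). The other tested markers did not pass. Among them were Ccr2, which gives most of the sums, Cd68 and Csf1r (log2 fold changes -0.65, -0.12 and -0.02, adjusted p = 0.192, 0.798 and 0.957, limma). Ly6c2 was at 0, 0 and 25.36 in clones 4, 12 and 18 and at 45.06 and 38.01 in the parental libraries. It reached the minimum for testing through the parental libraries alone, so no test is read for it. Lyz2 had no read and C1qa, C1qb and C1qc stayed below 5. Of 12 mast cell and basophil markers 8 were tested and 5 were higher (7.51% of all genes), with sums of 10309 to 12967 against 3226 to 5544. Il1rl1 and Tpsb2 were tested through the clones alone, so the calls to read are those of Gata2, Mcpt8 and Ms4a2. Gata2 was 2.61-fold higher (adjusted p = 0.000838, limma). Cpa3, Hdc and Mitf did not pass (adjusted p = 0.225, 0.139 and 0.146, limma), and Cpa3 was at 2450 and 386.2 in parental replicates 1 and 2. Fcer1a, Cma1, Tpsab1 and Mcpt4 had too few reads to test. Most of the sums came from Gata2, Cpa3 and Hdc, so they say little of the other markers. Of 11 T and NK cell markers only Lck was tested (adjusted p = 0.677, limma), and 6 had no read. Of 13 progenitor markers 3 were higher, 2 lower and 8 did not pass (7.51% and 8.49% of all genes were higher and lower), with sums of 88348 to 94902 in the clones and 105366 to 116839 in the parental libraries. Mpo weighs most on that difference, at 13908 ± 6069 (SD, n = 3) in the clones and 40741 ± 3014 (SD, n = 2) in the parental cells. It did not pass (adjusted p = 0.0629, limma), and the sums do not show that the list as a whole was lower. The part of these markers in the class II values was not tested, and in bulk RNA fewer cells of a type and less RNA per cell cannot be told apart.

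The gene with the highest mean among the 9, H2-DMa, was used to find genes with a like pattern. The 5 genes most like it by Pearson correlation of log2 values over the 5 libraries were Kif1c, a kinesin motor, Gm4070, Dock2, an activator of Rac in leukocytes, Usp4, a deubiquitinase, and Dcaf8, a ubiquitin ligase adaptor (r between 0.996 and 0.998). The 5 libraries fall in 2 groups, which any gene that differs between the groups shares, and 46 of 11050 genes exceeded 0.99. Of the 5, Gm4070 alone passed the comparison of clones with parental libraries (249.6 ± 36.1 against 129.0 ± 15.3, adjusted p = 0.0145, limma), and not without parental replicate 2 (0.0745).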

How the data were processed

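Of the series, the 5 mouse libraries were used. Per the submitters' processing notes, the tools named are RSEM, STAR 2.6.1 and DESeq2, with mm9 and hg19 as builds, and no role is stated for any. The authors deposited a normalized signal per Ensembl gene, read counts divided by a size factor per library, as the values show: 100% of values above 0 were whole multiples of the library's smallest value (tolerance 0.01), which gave back whole reads. The sources used here do not give alignment settings, use of strand or the treatment of shared reads, and overlap with other annotated transcripts was not checked. No gene coordinates, lengths or sequences of the mouse were at hand, so none are printed and levels are not compared between genes. Per the labels, groups and clone numbers follow the sample titles. The column headings number the clones titled 12, 18 and 4 as 4, 12 and 18.

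limma 3.58.1 (R 4.3.3) with trend and robust moderation was fitted to log2(value + 1) of the 13132 genes with a mean of at least 10, with Benjamini-Hochberg adjustment over all of them. Such fold changes understate those of genes with few reads. edgeR 4.0.16 and DESeq2 1.42.0 were run on the recovered reads, calling 2265 and 2681 genes. Scripts were tested on simulated data. Counts of replicates differed beyond sampling noise, with a chi-square per degree of freedom of 6.34 to 11.9 between clones and 26.9 between parental libraries, so each was kept as its own library.

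The genes described and the lists were chosen with earlier results of these data known. Named genes were the 9 genes, up to 4 members of each pathway list with the smallest p, up to 4 of each cell type list with the highest mean, Npm1, Hoxb8 and the 5 genes most like H2-DMa with a mean of at least 50. Genes named outside this rule were chosen after their values were seen. After the files were read, Spi1 was matched to its older symbol Sfpi1 and March8 to 8-Mar, and Sppl2a and March1 were not analysed here.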

Additional observations from a re-analysis of the deposited data

How the results depend on the processing

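The directions of the 5 tested class II genes held under all alternatives, which were pseudocounts of 0.5 and 5, a minimum mean of 1, 50 or none, equal library totals, TMM scaling, edgeR, DESeq2 and leaving out each library. H2-DMb1 fell under the minimum of 50 and was not tested there, nor was any costimulatory ligand. H2-Ab1 passed under every alternative, with log2 fold changes from 2.18 to 2.67. The 5 calls became 3 with no filter, without H2-Oa and H2-Ob (adjusted p = 0.0620 and 0.0567, limma), and 1 to 5 when a library was left out: 1 without parental replicate 2 (H2-Ab1) and 2 without clone 12 (H2-Ab1 and H2-DMb1). Over all genes the 2101 calls became 990 to 2115 without single libraries, 990 without parental replicate 2 and 1023 without clone 12, where fewer samples enter the fit. The split of all calls without parental replicate 2 was 590 higher and 400 lower, and without parental replicate 1 it was 1230 and 576, against 986 and 1115 with all libraries.

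Left-out libraries gave 0 to 2 calls among promoter-binding factors, 1 to 3 upstream of Ciita, 2 to 4 in peptide loading, 2 to 7 in class I presentation and 0 to 1 among costimulatory ligands. DESeq2 gave 3 calls for promoter-binding factors and 4 for peptide loading. With no filter there were 2 upstream of Ciita and 1 among costimulatory ligands. The counts upstream of Ciita and among costimulatory ligands can include genes tested through 1 group alone. The cause was not tested. The sum of H2-DMb1 and H2-DMb2 was added after the data were seen. No paired analysis was possible because clones and parental libraries share no replicate number. Depth limits Ciita, Cd74, H2-Aa and H2-Eb1, whose values rest on 0 to 6 reads in all.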
